A study of Mus musculus with 8 samples.

Results

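The genes described here form a set of 34 that encode the steps from glucose uptake to lactate, the oxygen sensors that act on hypoxia-inducible factor (HIF), and a few well-known targets of that factor. They were chosen as the probes whose gene name in the scanner files is one of a fixed list of 34 symbols, with Pkm listed there as Pkm2. All 34 were found, on 57 of the 55681 probes and among the 35019 gene names of the array. RNA of C57BL/6 mice was measured on 8 one-colour Agilent arrays, a pair per group in 4 groups. Passage-8 cells, the first group, are derivatives of the CD45-positive cells after 8 passages in culture. CD45-negative cells were sorted as c-kit+ and CD45- from cultures of left atrial appendage (mice of 8 to 12 weeks) after strong digestion with 0.25% trypsin and 0.1% collagenase D. CD45-positive cells were sorted as c-kit+ and CD45+ from the same kind of culture after weak digestion with 0.05% trypsin and 0.1% collagenase D. Left ventricle is a biopsy of the ventricular wall of mice of 12 weeks, the study's control. The sources used here give no oxygen level for the cultures.

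Glycolysis splits glucose into pyruvate in the cytosol. Lactate dehydrogenase can turn the pyruvate into lactate, which monocarboxylate transporters carry out of the cell, or the pyruvate enters the mitochondrion and is burned. Most steps have several enzymes encoded by separate genes, one of them typical of striated muscle. When oxygen is plentiful, prolyl hydroxylases mark the alpha subunits of HIF for destruction. When it is scarce the alpha subunits pair with Arnt and bind promoters at short sequences with the core ACGTG or GCGTG. Adult heart muscle burns mostly fatty acids and takes up glucose through an insulin-responsive transporter, whereas dividing cells in culture commonly make lactate.

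The promoters of 6 members are shown because they are the ones the results below return to: 3 hypoxia targets or sensors that differed between the cell groups, a lactate exporter that was far higher in all cell groups than in ventricle, and a pair of genes for the same enzyme that moved in opposite directions. Each is the stretch of 250 bases before the start site, 5′ to 3′, from RefSeq (build GRCm38.p6), with every ACGTG or GCGTG, on either strand, in capitals. Matches that overlap run together.
Car9 (chr4:43506776-43507025, plus strand): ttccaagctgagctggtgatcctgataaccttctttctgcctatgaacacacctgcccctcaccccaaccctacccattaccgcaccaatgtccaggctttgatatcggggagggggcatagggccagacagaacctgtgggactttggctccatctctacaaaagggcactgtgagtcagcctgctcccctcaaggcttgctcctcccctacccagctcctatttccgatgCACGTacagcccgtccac
Ankrd37 (chr8:45999851-46000100, minus strand): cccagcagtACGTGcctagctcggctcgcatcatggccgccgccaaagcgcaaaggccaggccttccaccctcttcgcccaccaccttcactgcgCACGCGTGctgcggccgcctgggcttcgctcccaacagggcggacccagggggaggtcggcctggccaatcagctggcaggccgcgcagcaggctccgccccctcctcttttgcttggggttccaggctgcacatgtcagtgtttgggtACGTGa
Egln3 (chr12:54203875-54204124, minus strand): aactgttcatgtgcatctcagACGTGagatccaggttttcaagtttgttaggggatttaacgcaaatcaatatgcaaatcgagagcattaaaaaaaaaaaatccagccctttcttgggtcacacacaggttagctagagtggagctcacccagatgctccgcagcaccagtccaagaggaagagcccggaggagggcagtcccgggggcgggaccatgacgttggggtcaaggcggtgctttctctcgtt
Slc16a3 (chr11:120948817-120949066, plus strand): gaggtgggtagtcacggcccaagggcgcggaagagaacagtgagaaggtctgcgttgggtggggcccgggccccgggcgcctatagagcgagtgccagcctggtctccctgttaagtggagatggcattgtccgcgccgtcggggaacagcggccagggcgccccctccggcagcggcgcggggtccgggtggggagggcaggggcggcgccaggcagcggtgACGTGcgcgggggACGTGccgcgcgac
Pgam1 (chr19:41911621-41911870, plus strand): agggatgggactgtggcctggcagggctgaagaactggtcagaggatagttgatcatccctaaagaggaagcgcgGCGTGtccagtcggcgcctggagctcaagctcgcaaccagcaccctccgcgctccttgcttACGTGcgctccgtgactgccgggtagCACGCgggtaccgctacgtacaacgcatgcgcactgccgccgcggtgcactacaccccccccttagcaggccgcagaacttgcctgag
Pgam2 (chr11:5803797-5804046, minus strand): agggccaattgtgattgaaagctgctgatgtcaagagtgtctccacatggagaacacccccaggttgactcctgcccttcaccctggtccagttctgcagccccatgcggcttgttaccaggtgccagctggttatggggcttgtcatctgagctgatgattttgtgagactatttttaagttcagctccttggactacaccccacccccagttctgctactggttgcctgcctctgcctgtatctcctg

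Car9 has an ACGTG on the minus strand that begins 18 bases before the start site. Slc16a3 has a pair of them, at 27 and 14 bases. Ankrd37 has one at each end of the stretch, 241 and 6 bases before the start, and a pair of overlapping GCGTG matches between them. Egln3 has 1, at 229 bases. Pgam1 holds 3 matches in all and Pgam2 none. Of the 34 members, 30 had at least 1 promoter in the RefSeq table, and Slc2a3, Slc2a4, Epas1 and Ndufa4l2 had no entry. A match stood in at least 1 promoter of 26 members, and none stood in those of Gpi1, Tpi1, Pgam2 and Eno2. Counted by promoter, 34 of the members' 43 (79.1%) held a match, against 12679 of all 32851 promoters of the same length (38.6%). For ACGTG alone it was 20 of 43 (46.5%), against 5444 (16.6%). Some members have several promoters, and some of those of Aldoa, Eno1 and Pfkm overlap, so the same match can be counted more than once. A match of 5 letters is a description of the sequence and not a binding site.

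Values below are log2 signals relative to the 75th percentile of the same array, so 0 is the level of that percentile. They are compared for 1 gene across groups and never between genes. With 2 arrays a group, their number limits the precision. Across the series, 51.5% to 69.9% of spots were well above background, and the 75th percentile lay between 423 and 970 intensity units, lowest on the CD45-negative arrays. Over the genes well above background, the SD between replicates was 0.573 in CD45-negative cells, 0.394 in left ventricle, 0.238 in passage-8 cells and 0.198 in CD45-positive cells. Nothing in the labels says whether the 2 arrays of a group stand for different cultures or mice. The p-values therefore reflect the spread of these samples alone, and that spread may be only technical. The CD45 gene, Ptprc, read -5.56 and -5.16 in passage-8 cells, -5.51 and -3.33 in CD45-negative cells and 2.04 and 1.94 in CD45-positive cells, against -2.32 and -2.88 in left ventricle. Kit, the gene of the c-kit sort marker, was well above background on 1 of 2 CD45-negative arrays. Cardiomyocyte markers, 15 of 15 well above background on both ventricle arrays, had a summed signal of 7.53 to 7.93 times the 75th percentile in passage-8 cells, 3.62 to 4.80 in CD45-negative cells and 3.27 to 3.47 in CD45-positive cells, against 6151 to 6599 in left ventricle. Myl7, Pln, Mb and Ckm were not well above background on any array of cells.

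Against left ventricle, each cell group carried Pkm and the general forms Slc2a1, Pgam1 and Eno1 at higher levels. The muscle forms Slc2a4, Pfkm, Pgam2 and Eno3 and the heart-type Ldhb were far lower. Other forms, Hk1, Hk2, Pfkp, Aldoa and Ldha, did not pass on the probes used. In passage-8 cells 13 members were higher and 8 lower of 34 tested, 61.8% in all, beside 39.2% of all 24127 genes tested (20.3% higher, 18.9% lower). In CD45-negative cells 12 were higher and 6 lower, 52.9% in all, beside 39.5% of all genes (20.2% higher, 19.3% lower). In CD45-positive cells 13 were higher and 5 lower, also 52.9%, beside 38.1% (18.1% higher, 19.9% lower). With genes required to be well above background on all 8 arrays, 20, 16 and 16 of 32 members passed in the 3 comparisons. The 3 comparisons share the ventricle arrays. The members' median log2 difference was 0.66 in passage-8 cells, 0.42 in CD45-negative cells and 0.63 in CD45-positive cells, where the median of all genes tested was 0.05, 0.06 and -0.03. A gene passed at a limma adjusted p under 0.05 and a log2 difference of at least 1. Ventricle is whole tissue from a biopsy of mice of 12 weeks, with RNA from another extraction reagent. The cells came from another chamber, the left atrial appendage of mice of 8 to 12 weeks, and were grown in culture. These differences between ventricle and cells cannot be told apart from the group. In such bulk samples fewer cells of a type and less RNA per cell cannot be told apart either.

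**Figure D1:**
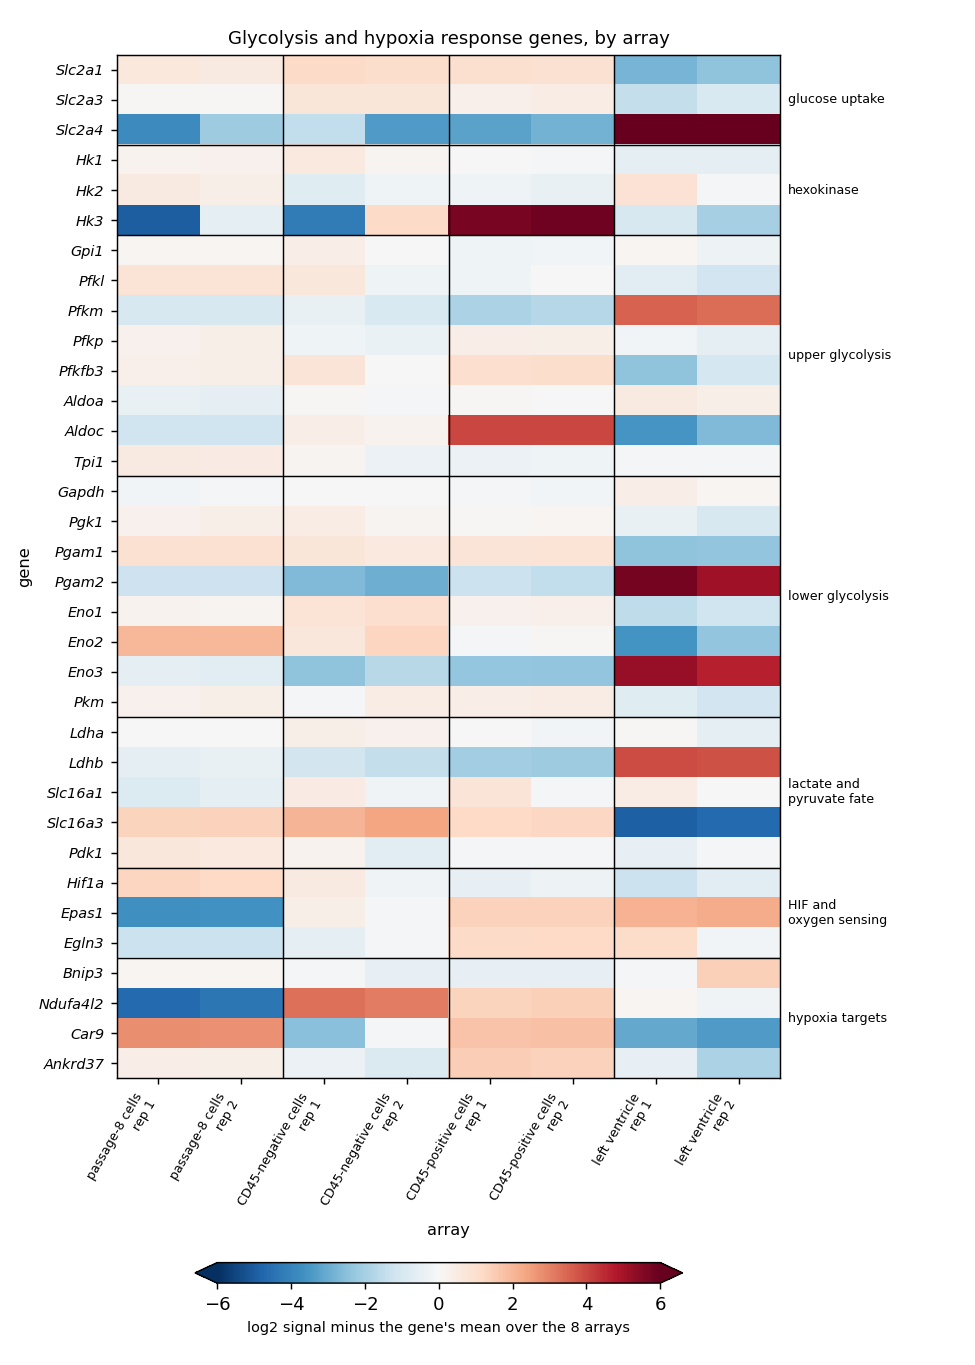
Each row is 1 of the 34 genes and each column 1 of the 8 arrays, grouped as passage-8, CD45-negative and CD45-positive cells and left ventricle. Colour is the log2 signal minus the gene's mean over the 8 arrays (blue low, red high, full colour at 6 or more). Slc2a4, Pgam2, Eno3, Ldhb and Pfkm are red in both ventricle arrays and blue in all 6 cell arrays, and Slc16a3 is the reverse.

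**Figure D2:**
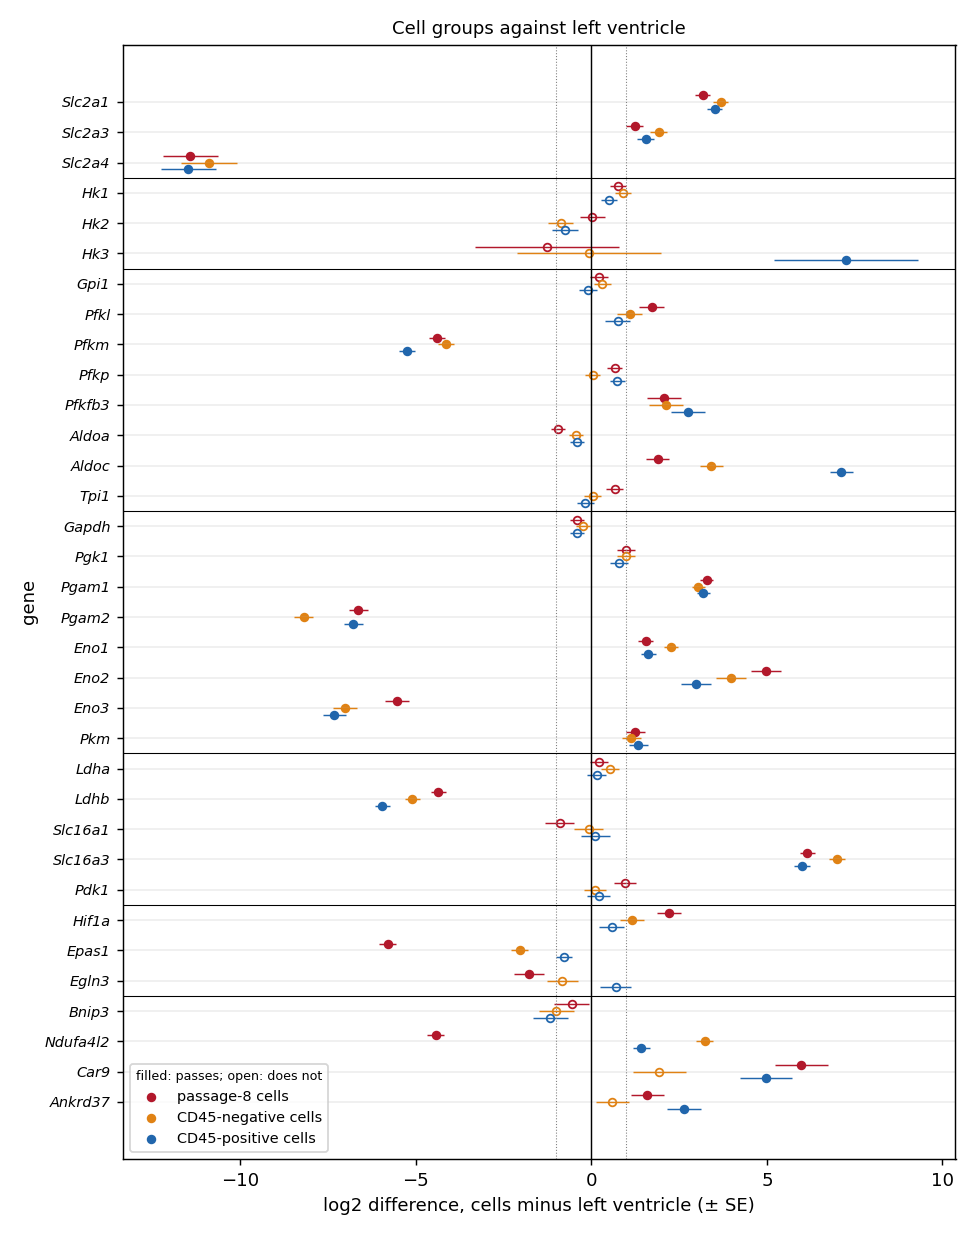
Log2 difference of each cell group minus left ventricle for the 34 genes, with SE bars. Filled points passed the test, open points did not, and dotted lines mark a difference of 1. Slc2a4 lies between -11.48 and -10.89 in the 3 cell groups, and Slc16a3 is the highest point of the CD45-negative group and, close to Car9, of the passage-8 group.

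Glucose transporters divided cleanly. Slc2a4 (GLUT4), the insulin-responsive transporter of muscle and fat, read -5.52 and -3.81 in passage-8 cells, -3.19 and -5.08 in CD45-negative cells and -4.92 and -4.52 in CD45-positive cells, against 6.94 and 6.57 in left ventricle (probe at chr11:69756073-69756132, mm9, minus strand). All cell arrays lay far below both ventricle arrays, and 1 of 2 CD45-negative arrays was not well above background. It was 2736-fold lower in passage-8 cells (log2 -11.42, SE 0.78, limma adjusted p = 0.000271) and 2852-fold lower in CD45-positive cells. For the CD45-negative group the mean log2 difference was -10.89. It was tested through the ventricle arrays, and with 1 array not well above background it gives no exact fold. Leaving out 1 array moved the passage-8 value between -12.27 and -10.56, and the CD45-negative value between -11.84 and -9.94. Slc2a1 (GLUT1), the transporter of most dividing cells, read 4.37 and 4.29 in passage-8 cells, 4.87 and 4.79 in CD45-negative cells and 4.70 and 4.64 in CD45-positive cells, against 0.97 and 1.33 in left ventricle. The cell arrays were close together and all above the ventricle, 9.04-fold in passage-8 cells, 12.8-fold in CD45-negative cells and 11.5-fold in CD45-positive cells. Slc2a3 (GLUT3), a high-affinity transporter known from neurons and leukocytes, read -0.75 and -0.78 in passage-8 cells, -0.09 and -0.09 in CD45-negative cells and -0.52 and -0.40 in CD45-positive cells, against -2.27 and -1.73 in left ventricle. It was also higher in each cell group (2.36-fold, 3.77-fold and 2.92-fold in that order). Its call in passage-8 cells ended without either passage-8 array (adjusted p = 0.0522 and 0.0530) and, with a log2 difference under 1, without ventricle replicate 1 (0.97) or with normexp background (0.86). Among cell groups 0 of the 3 glucose transporters passed by limma. At an unadjusted p under 0.05, 1 was lower in passage-8 than in CD45-negative cells and 0 differed in the other comparisons among cells.

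Hexokinases phosphorylate glucose on entry. Hk1, the general form, and Hk2, the insulin-regulated form of muscle, passed in none of the 6 comparisons on the probes used. Hk1 read 7.67 and 7.74 in passage-8 cells, 8.05 and 7.62 in CD45-negative cells and 7.47 and 7.41 in CD45-positive cells, against 6.95 and 6.93 in left ventricle, with all cell arrays slightly above the ventricle. Without ventricle replicate 2, Hk2 passed as lower in CD45-negative cells (log2 -1.34) and CD45-positive cells (log2 -1.21), and without CD45-negative replicate 2, Hk1 passed as higher in CD45-negative cells than in ventricle (log2 1.11). Hk3 read -5.95 and -1.60 in passage-8 cells, -5.24 and 0.10 in CD45-negative cells and 4.65 and 4.83 in CD45-positive cells, against -1.97 and -3.04 in left ventricle (probe at chr13:55107900-55107959, mm9, minus strand). Both CD45-positive arrays were high, and 1 of 2 arrays in each of the passage-8 and CD45-negative groups was not well above background. Hk3, known from myeloid blood cells, was 152.2-fold higher in CD45-positive cells than in ventricle (adjusted p = 0.0323). The mean log2 difference from CD45-positive cells was -8.52 in passage-8 cells (adjusted p = 0.0293) and -7.31 in CD45-negative cells (adjusted p = 0.0479), with an SE of 2.04. In both comparisons Hk3 entered the test only through the CD45-positive group, where it is high, so the calls are no support for a difference and no fold is given. The SD between replicates was 3.08 in passage-8 cells and 3.78 in CD45-negative cells. Leaving out 1 array moved the log2 difference of passage-8 from CD45-positive cells between -10.69 and -6.34, and that of CD45-negative from CD45-positive cells between -9.98 and -4.64. The call against CD45-positive cells ended without CD45-negative replicate 1 (adjusted p = 0.122) or passage-8 replicate 1 (adjusted p = 0.0874), and all Hk3 calls ended without either CD45-positive array or either ventricle array. Of 14 macrophage markers, 13 had their highest mean in CD45-positive cells and 1, Itgam, in CD45-negative cells. Their summed signal was 35.8 to 36.4 times the 75th percentile in passage-8 cells, 61.2 to 101 in CD45-negative cells and 905 to 923 in CD45-positive cells, against 97.6 to 105 in left ventricle, with 10, 11, 14 and 13 of 14 markers well above background on both arrays. Neither passage-8 array had Adgre1, C1qa or Cx3cr1 well above background. Itgam read 4.80 and 4.83 in passage-8 cells, 5.84 and 6.07 in CD45-negative cells and 4.31 and 4.30 in CD45-positive cells, against 5.83 and 5.91 in left ventricle. Without Itgam, left out after its values were seen, the sums were 7.95 and 7.96 in passage-8 cells, 4.13 and 34.4 in CD45-negative cells and 903 and 885 in CD45-positive cells, against 48.3 and 37.4 in left ventricle. The CD45-negative array with the higher sum, replicate 2, was also the one with the higher Hk3. The markers' part in the Hk3 result was not tested.

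Phosphofructokinase is the main control point of glycolysis and is built from muscle (Pfkm), liver (Pfkl) and platelet (Pfkp) subunits. Pfkm read 2.42 and 2.45 in passage-8 cells, 2.92 and 2.49 in CD45-negative cells and 1.50 and 1.67 in CD45-positive cells, against 6.91 and 6.76 in left ventricle. All 6 cell arrays were below both ventricle arrays, with 21.2-fold, 17.5-fold and 38.1-fold lower levels in the 3 cell groups in that order. Pfkl read 3.70 and 3.67 in passage-8 cells, 3.52 and 2.61 in CD45-negative cells and 2.60 and 2.84 in CD45-positive cells, against 2.22 and 1.72 in left ventricle. It was 3.28-fold higher in passage-8 cells (adjusted p = 0.0112, 0.0609 without ventricle replicate 2) and 2.13-fold higher in CD45-negative cells. The second of these ended in 16 of 20 alternatives, with adjusted p from 0.0115 to 0.201. In CD45-positive cells its log2 difference of 0.75 did not pass. Pfkp, which read 2.06 and 2.13 in passage-8 cells, 1.53 and 1.42 in CD45-negative cells and 2.19 and 2.17 in CD45-positive cells, against 1.61 and 1.25 in left ventricle, did not pass anywhere. Only the CD45-negative arrays overlapped the ventricle, with log2 differences from ventricle of 0.66, 0.04 and 0.74. Pfkfb3, which makes the activator fructose 2,6-bisphosphate, read 2.96 and 3.03 in passage-8 cells, 3.42 and 2.67 in CD45-negative cells and 3.68 and 3.70 in CD45-positive cells, against 0.26 and 1.59 in left ventricle. It was higher in all 3 cell groups, by 4.20-fold, 4.33-fold and 6.79-fold. The ventricle arrays lay 1.33 apart, and without replicate 1 or 2 of the ventricle the log2 difference was 1.40 or 2.74 in passage-8 cells, 1.45 or 2.78 in CD45-negative cells and 2.10 or 3.43 in CD45-positive cells. The calls ended without either passage-8 array in passage-8 cells (adjusted p = 0.0543 and 0.0632) and without replicate 1 in CD45-negative cells (adjusted p = 0.0610).

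Aldolase cuts the 6-carbon sugar. Aldoc, the form known from brain, read 0.14 and 0.14 in passage-8 cells, 1.77 and 1.54 in CD45-negative cells and 5.38 and 5.35 in CD45-positive cells, against -2.20 and -1.30 in left ventricle (probe at chr11:78140198-78140257, mm9, plus strand). The 4 groups did not overlap, with CD45-positive cells highest and ventricle lowest. It was 3.71-fold, 10.6-fold and 138.4-fold higher than in ventricle in passage-8, CD45-negative and CD45-positive cells. Aldoa, the muscle and general form, did not pass, with log2 differences from ventricle of -0.95, -0.44 and -0.41. It passed as lower in passage-8 cells without ventricle replicate 2 (log2 -1.02).

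In lower glycolysis the muscle and general forms moved apart. Pgam2, the muscle phosphoglycerate mutase, read 0.10 and 0.10 in passage-8 cells, -1.32 and -1.60 in CD45-negative cells and 0.04 and -0.13 in CD45-positive cells, against 7.06 and 6.41 in left ventricle. Pgam1, the general form, read 7.26 and 7.25 in passage-8 cells, 7.08 and 6.95 in CD45-negative cells and 7.13 and 7.18 in CD45-positive cells, against 3.95 and 3.99 in left ventricle. In neither gene did any cell array reach the ventricle's range. Pgam2 was 99.4-fold, 293.2-fold and 109.8-fold lower and Pgam1 9.74-fold, 8.26-fold and 9.09-fold higher in the 3 cell groups. The promoters printed above differ, with 3 core matches for Pgam1 and none for Pgam2. The promoters of Slc2a1, Eno1 and Slc16a3, which were higher in the cells, hold at least 1, and that of Eno2, also higher, holds none. Those of Pfkm, Eno3 and Ldhb, far lower in the cells, hold at least 1. The matches' part in these differences was not tested.

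Enolase showed the same split over 3 genes. Eno3, the muscle form, read 2.57 and 2.48 in passage-8 cells, 0.66 and 1.43 in CD45-negative cells and 0.77 and 0.71 in CD45-positive cells, against 8.34 and 7.78 in left ventricle. Eno1, the general form, read 7.27 and 7.26 in passage-8 cells, 7.91 and 8.07 in CD45-negative cells and 7.31 and 7.37 in CD45-positive cells, against 5.55 and 5.88 in left ventricle. Eno3 was 46.3-fold, 129.1-fold and 159.8-fold lower and Eno1 2.93-fold, 4.82-fold and 3.08-fold higher. Eno2, the neuronal form, read 2.75 and 2.76 in passage-8 cells, 1.46 and 2.07 in CD45-negative cells and 0.71 and 0.82 in CD45-positive cells, against -2.81 and -1.61 in left ventricle. All cell arrays exceeded both ventricle arrays, by 31.4-fold, 15.8-fold and 7.88-fold. Without ventricle replicate 1 or 2 its log2 difference was 4.37 or 5.57 in passage-8 cells, 3.38 or 4.58 in CD45-negative cells and 2.38 or 3.58 in CD45-positive cells. Pkm, which makes pyruvate, read 6.18 and 6.28 in passage-8 cells, 5.84 and 6.37 in CD45-negative cells and 6.29 and 6.34 in CD45-positive cells, against 5.18 and 4.77 in left ventricle. It was 2.39-fold, 2.20-fold and 2.54-fold higher. The call in passage-8 cells ended without passage-8 replicate 1 or 2 (adjusted p = 0.0529 and 0.0709) and that in CD45-positive cells without CD45-positive replicate 1 or 2 (adjusted p = 0.0586 and 0.0692). In passage-8 and CD45-negative cells they ended as well without ventricle replicate 2 (adjusted p = 0.0575 and 0.0781). Without CD45-negative replicate 2 the log2 difference of those cells fell below 1. Splice forms of Pkm were not analysed here.

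Slc16a3 (MCT4), the lactate exporter of glycolytic cells, read 5.23 and 5.31 in passage-8 cells, 5.96 and 6.28 in CD45-negative cells and 5.08 and 5.15 in CD45-positive cells, against -1.01 and -0.76 in left ventricle (probe at chr11:120820030-120820089, mm9, plus strand). All 6 cell arrays were far above both ventricle arrays. The fold was 71.0 in passage-8 cells (log2 6.15, SE 0.22, adjusted p = 7.67e-05), 128.3 in CD45-negative cells and 64.1 in CD45-positive cells. Car9 differed from ventricle by nearly as much in passage-8 cells (log2 5.98), and without ventricle replicate 1 by more (6.15, with 6.03 for Slc16a3). Another probe of Slc16a3 gave 6.04, 6.92 and 5.85 log2 units. Ldhb, the lactate dehydrogenase subunit typical of heart, read 3.75 and 3.87 in passage-8 cells, 3.24 and 2.90 in CD45-negative cells and 2.23 and 2.21 in CD45-positive cells, against 8.22 and 8.12 in left ventricle. The 4 groups did not overlap, and it was 20.6-fold, 34.3-fold and 62.0-fold lower than in ventricle. Ldha, the subunit typical of skeletal muscle and of glycolytic cells, read 8.07 and 8.10 in passage-8 cells, 8.46 and 8.32 in CD45-negative cells and 8.12 and 7.91 in CD45-positive cells, against 8.16 and 7.56 in left ventricle. The ventricle arrays spanned both passage-8 and both CD45-positive arrays, both CD45-negative arrays lay above them, and the gene did not pass on the probe used, at 0.22, 0.53 and 0.15 log2 units from ventricle. Slc16a1 (MCT1), the general lactate transporter, and Pdk1, a kinase that shuts the pyruvate dehydrogenase complex, passed in no comparison. Without CD45-negative replicate 1, Pdk1 passed as higher (log2 1.26) and Slc16a3 as lower (log2 -1.01) in passage-8 than in CD45-negative cells.

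The remaining enzymes of the main chain differed little from ventricle. The log2 differences in passage-8, CD45-negative and CD45-positive cells were 0.21, 0.31 and -0.10 for Gpi1 (glucose-6-phosphate isomerase), 0.66, 0.04 and -0.17 for Tpi1 (triosephosphate isomerase) and -0.41, -0.25 and -0.40 for Gapdh. The Gapdh signal read 8.63 and 8.71 in passage-8 cells, 8.81 and 8.85 in CD45-negative cells and 8.73 and 8.63 in CD45-positive cells, against 9.21 and 8.95 in left ventricle, so that all cell arrays lay below both ventricle arrays. Tpi1 read 7.19 and 7.15 in passage-8 cells, 6.81 and 6.29 in CD45-negative cells and 6.31 and 6.37 in CD45-positive cells, against 6.52 and 6.50 in left ventricle. For Tpi1 both passage-8 arrays lay above the ventricle, both CD45-positive arrays lay below it, and the CD45-negative arrays lay on either side. For Pgk1 (phosphoglycerate kinase) the log2 differences from ventricle were 0.99, 0.99 and 0.78, with adjusted p under 0.05 in all 3 but each difference under 1. Without ventricle replicate 1 it passed as higher in all 3 cell groups (log2 1.24, 1.25 and 1.04), and without CD45-negative replicate 2 in CD45-negative cells (1.13). The files place the Pgk1 probe on chromosome 3 and the Gapdh probe on chromosome 7, while RefSeq has the promoters of these genes on X and 6. Whether these probes read near-identical copies was not tested, and their values are uncertain.

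The oxygen-sensing members moved apart from each other. Hif1a, the alpha subunit active in acute hypoxia, read 3.42 and 3.33 in passage-8 cells, 2.70 and 1.96 in CD45-negative cells and 1.66 and 1.83 in CD45-positive cells, against 0.85 and 1.50 in left ventricle (probe at chr12:75047269-75047329, mm9, plus strand). The passage-8 arrays were highest and the ventricle arrays lowest, with no overlap between groups. It was 4.60-fold higher than ventricle in passage-8 cells and 2.22-fold in CD45-negative cells, the second call lost in 14 of 20 alternatives (adjusted p 0.0107 to 0.153). Epas1 (HIF-2 alpha), the alpha subunit known from endothelium, read 0.81 and 0.87 in passage-8 cells, 4.84 and 4.36 in CD45-negative cells and 5.85 and 5.86 in CD45-positive cells, against 6.58 and 6.72 in left ventricle (probe at chr17:87232615-87232674, mm9, plus strand). The groups did not overlap, and passage-8 cells stood far below the rest. Of 9 endothelial markers, 4 were well above background on both arrays in passage-8 cells, 5 in CD45-negative cells and 9 in CD45-positive cells, against 9 in left ventricle. Neither passage-8 array had Cdh5, Tie1, Emcn or Cldn5 above background, and neither CD45-negative array Tie1, Emcn or Cldn5. The markers' summed signal was at most 11.1 times the 75th percentile in passage-8 cells, 15.3 to 31.1 in CD45-negative cells and 13.0 to 14.9 in CD45-positive cells, against 72.7 to 88.1 in left ventricle. Their part in the Epas1 result was not tested. Epas1 was 55.9-fold lower than ventricle in passage-8 cells (log2 -5.81, SE 0.23, adjusted p = 9e-05) and 4.13-fold lower in CD45-negative cells. With all probes of the gene averaged, the CD45-negative difference was -0.74 and no longer passed. In CD45-positive cells the log2 difference of -0.79 had an adjusted p of 0.0387 but was under 1. Egln3, a prolyl hydroxylase that HIF itself induces, read -0.04 and -0.06 in passage-8 cells, 0.67 and 1.13 in CD45-negative cells and 2.40 and 2.43 in CD45-positive cells, against 2.35 and 1.09 in left ventricle. It was 3.41-fold lower than ventricle in passage-8 cells, a difference of -1.14 or -2.40 log2 units without ventricle replicate 1 or 2, and the call ended without either passage-8 array (adjusted p = 0.0656 and 0.0722). The ventricle arrays lay 1.26 apart. Egln3 passed as higher in CD45-positive cells than in ventricle without ventricle replicate 1 (log2 1.32) and as lower in CD45-negative cells without ventricle replicate 2 (log2 -1.45).

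Among the 4 hypoxia targets, Car9, a carbonic anhydrase of the cell surface, read 1.93 and 1.86 in passage-8 cells, -3.40 and -0.92 in CD45-negative cells and 0.86 and 0.90 in CD45-positive cells, against -3.92 and -4.26 in left ventricle (probe at chr4:43526518-43526577, mm9, plus strand). The ventricle was lowest, and the CD45-negative arrays differed by 2.47 log2 units. Car9 was 63.3-fold higher than ventricle in passage-8 cells (adjusted p = 0.00178) and 31.4-fold in CD45-positive cells. The ventricle signal was low, at 6.59% and 5.22% of the 75th percentile, and these folds depend on the processing. Over the 20 alternatives the log2 difference lay between 4.45 and 6.15 in passage-8 cells and between 3.47 and 5.26 in CD45-positive cells. The 1.93 in CD45-negative cells did not pass (adjusted p = 0.0812), a result kept in 14 of 20 alternatives. Among the others was the fit without CD45-negative replicate 1 (log2 3.17). Ankrd37, a small ankyrin-repeat protein, read 1.81 and 1.75 in passage-8 cells, 1.04 and 0.53 in CD45-negative cells and 2.86 and 2.78 in CD45-positive cells, against 0.89 and -0.52 in left ventricle. It was 3.02-fold higher than ventricle in passage-8 cells and 6.22-fold in CD45-positive cells. Without ventricle replicate 1 or 2 the log2 difference was 2.30 or 0.89 in passage-8 cells and 3.34 or 1.93 in CD45-positive cells. The passage-8 call also ended without either passage-8 array (adjusted p = 0.113 and 0.108) or either CD45-positive array (adjusted p = 0.0688 each). Without ventricle replicate 1, Ankrd37 passed as higher in CD45-negative cells too (log2 1.31). Ndufa4l2, a mitochondrial protein that HIF induces, read -2.38 and -2.05 in passage-8 cells, 5.57 and 5.33 in CD45-negative cells and 3.60 and 3.71 in CD45-positive cells, against 2.38 and 2.07 in left ventricle. It was the 1 member that passed in opposite directions, 21.7-fold lower in passage-8 cells and 9.34-fold and 2.69-fold higher in CD45-negative and CD45-positive cells. Bnip3, a mitophagy receptor, did not pass, with log2 differences between -1.17 and -0.56. It read 5.99 and 5.99 in passage-8 cells, 5.73 and 5.36 in CD45-negative cells and 5.38 and 5.36 in CD45-positive cells, against 5.77 and 7.32 in left ventricle. The ventricle arrays lay far apart, 1 of them below both passage-8 arrays, and without replicate 1 of the ventricle Bnip3 passed as lower in all 3 cell groups (log2 -1.33, -1.77 and -1.94).

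**Figure D3:**
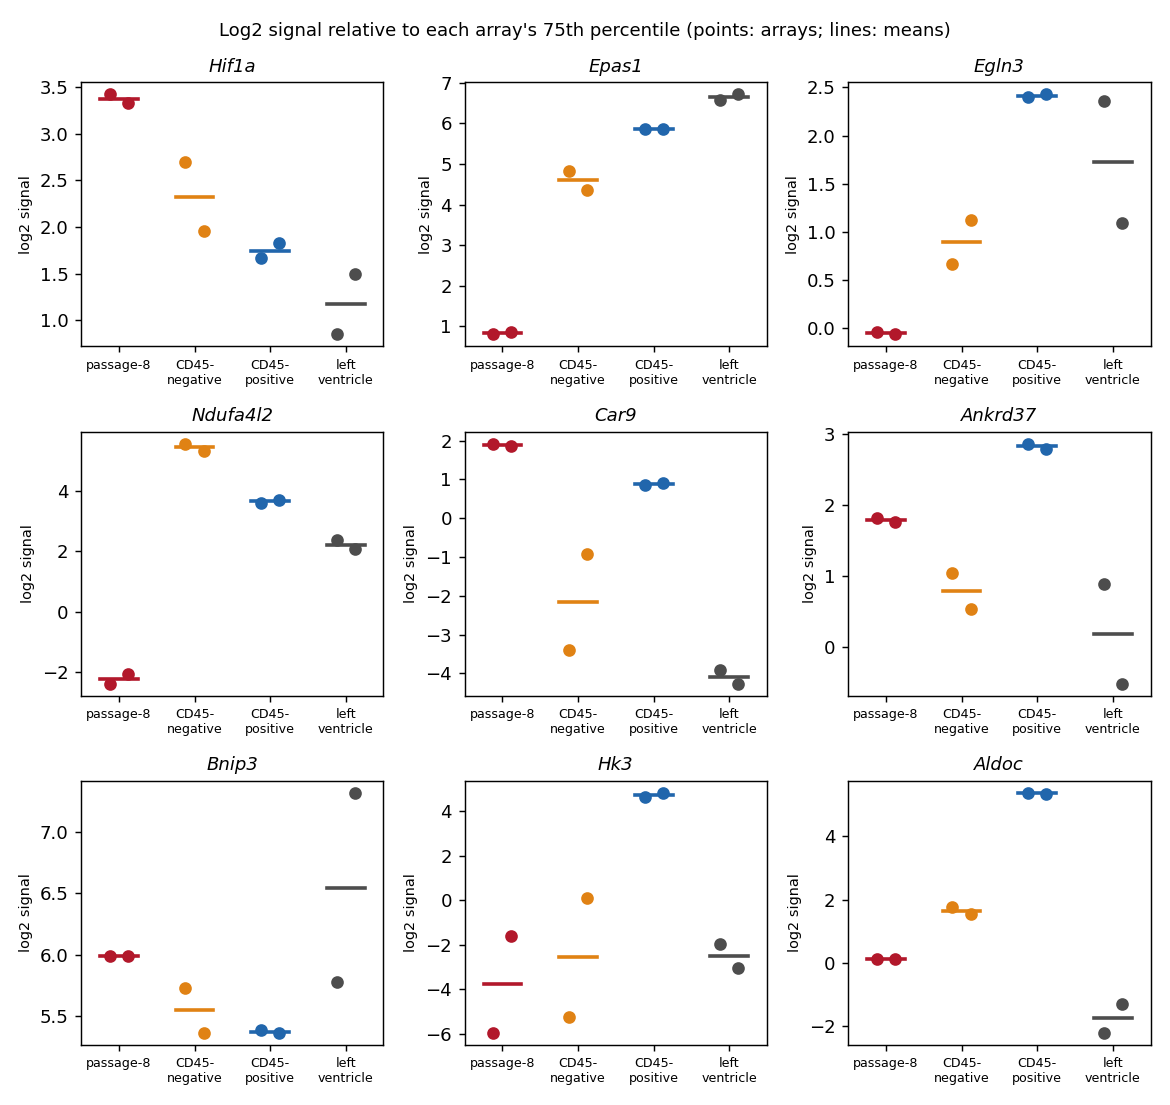
Log2 signal relative to each array's 75th percentile for 9 genes, 1 panel each with its own axis. Points are the 2 arrays of a group and lines their means, in the order passage-8, CD45-negative and CD45-positive cells and left ventricle. Epas1 and Ndufa4l2 are lowest in passage-8 cells, Hif1a and Car9 highest there, and Hk3 has widely spaced CD45-negative and passage-8 arrays.

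Passage-8 cells had less Epas1, Egln3, Ndufa4l2 and Aldoc and more Hif1a, Eno2, Eno3 and Ldhb than the CD45-positive cells they derive from. Of 34 members tested 4 were higher and 5 lower, 26.5% beside 23.6% of all 23576 genes (12.7% higher, 10.9% lower), a share near the background. With each array scaled to its median instead, 2 were higher and 5 lower, and Hif1a (adjusted p = 0.111) and Ldhb (adjusted p = 0.0548) no longer passed. Hif1a was 3.09-fold higher (log2 1.63, SE 0.35, adjusted p = 0.0198). Epas1 was 32.4-fold lower (log2 -5.02, SE 0.23, adjusted p = 0.00044) and Egln3 5.51-fold lower (adjusted p = 0.0109). Ndufa4l2 was 58.3-fold lower (adjusted p = 0.000396) and Aldoc 37.3-fold (adjusted p = 0.000587), and the fifth lower call was that of Hk3. With genes required to be well above background on all arrays, Hk3 was not tested and 4 were higher and 4 lower of 32. Higher too were the muscle-type Eno3 (3.45-fold), the heart-type Ldhb (3.02-fold) and the neuronal Eno2 (3.98-fold), although Eno3 and Ldhb stayed far below ventricle. Pfkm and Tpi1 had adjusted p of 0.0432 and 0.0494 with log2 differences of 0.85 and 0.83. Aldoc, Epas1, Ldhb and Ndufa4l2 passed whichever array was left out. Car9 (log2 1.01) passed as higher without either CD45-negative array (adjusted p = 0.0141 each), and Ankrd37 (log2 -1.04) as lower without either ventricle array (adjusted p = 0.0409 each). Eno2, Eno3 and Hif1a ended without either passage-8 or either CD45-positive array (adjusted p = 0.0549 to 0.113), and Egln3 without passage-8 replicate 2 (adjusted p = 0.0506) or either CD45-positive array (adjusted p = 0.0655 and 0.0719). Marker sums, in the units used above, also differed between these groups. Macrophage markers gave 905 to 923 in CD45-positive and 35.8 to 36.4 in passage-8 cells. The 12 fibroblast and stromal markers gave 631 to 656 and 1087 to 1090, in that order. All 12 were well above background on both arrays of each group. The 6 mesothelial markers gave 5.97 to 6.95 and 22.7 to 27.3. The parts of cell composition and of passage in the gene differences were not tested.

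Against CD45-negative cells, passage-8 cells had less Ndufa4l2, Epas1 and Aldoc and more Car9, Pgam2 and Eno3. Of 33 members tested, Hk3 being left out as well above background on 1 array only in each group, 3 were higher and 3 lower. That is 18.2% beside 13.9% of all 22905 genes (6.98% higher, 6.95% lower), also a share near the background. Ndufa4l2 was 202.4-fold lower (log2 -7.66, SE 0.24, adjusted p = 0.000599), the largest difference of any member among the cell groups other than Hk3. Epas1 was 13.6-fold lower (adjusted p = 0.00119) and Aldoc 2.87-fold lower (adjusted p = 0.0332). Car9 was 16.6-fold higher (adjusted p = 0.0218), with a log2 difference of 2.81 or 5.29 without CD45-negative replicate 1 or 2. Pgam2 (2.95-fold) and Eno3 (2.79-fold) were higher. With each array scaled to its median, Aldoc (adjusted p = 0.116) and Pgam2 (adjusted p = 0.0708) no longer passed. Hif1a, at 1.05 log2 units, did not pass (adjusted p = 0.0966; 0.0387 without CD45-negative replicate 1), nor did Egln3 at -0.95 (adjusted p = 0.192). Of the 6, Epas1 and Ndufa4l2 passed whichever array was left out. The calls of Aldoc, Car9, Eno3 and Pgam2 each ended without either passage-8 array (adjusted p = 0.0827 to 0.162) or either CD45-positive array (adjusted p = 0.0562 to 0.0898), and those of Aldoc and Eno3 also without CD45-negative replicate 1 (adjusted p = 0.0668 and 0.0537). Aldoc ended as well without CD45-negative replicate 2 (adjusted p = 0.0557).

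**Figure D4:**
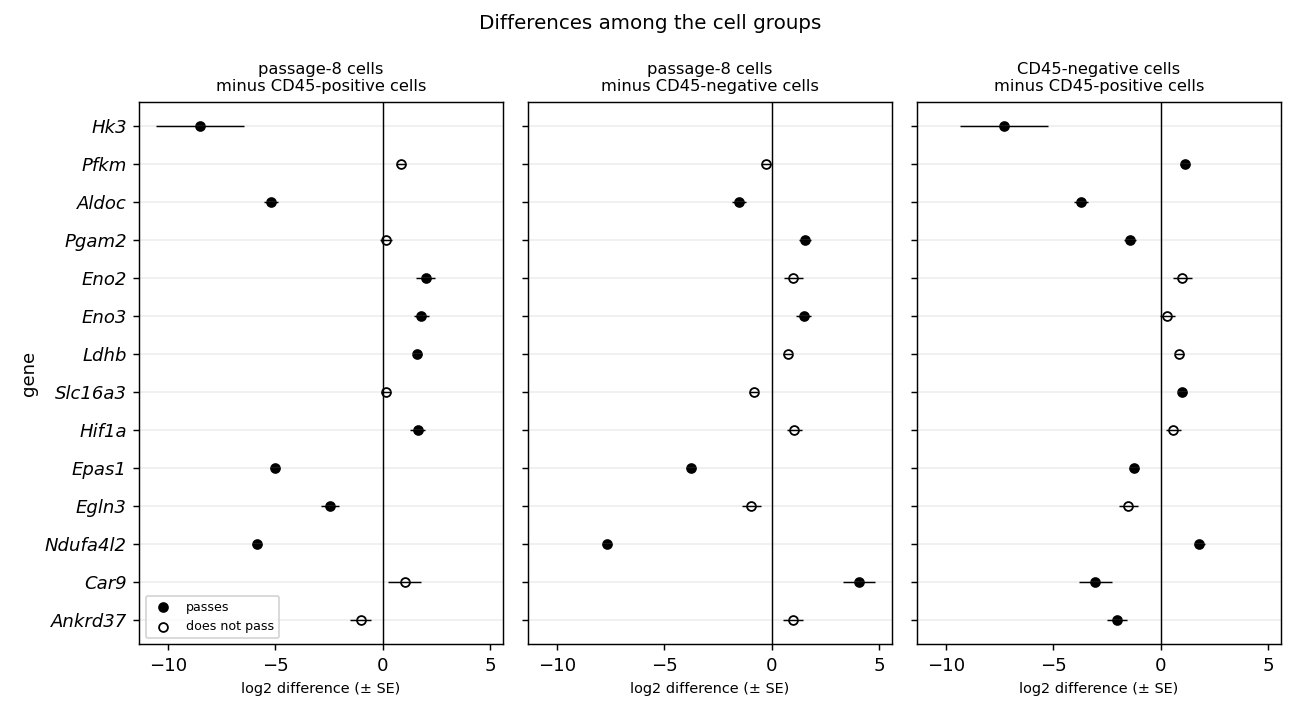
Log2 differences with SE bars for the 14 members that passed in at least 1 comparison among the cell groups, 1 panel per comparison. Filled points passed and open points did not, and Hk3 has no point in the middle panel, where it was not tested. Ndufa4l2 and Epas1 lie far to the left in both panels that set passage-8 cells against another group.

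Between the sorted groups, CD45-negative cells had 3 members higher and 6 lower than CD45-positive cells of 34 tested. That is 26.5% beside 21.8% of all 21640 genes (11.3% higher, 10.5% lower), again a share near the background. The split was 2 higher and 7 lower with quantile normalization, normexp background or the authors' values, and 1 and 6 with each array scaled to its median. The 6 lower include Hk3, and 3 were higher and 5 lower of 32 with genes required to be well above background on all arrays. Ndufa4l2 was 3.47-fold higher (adjusted p = 0.00588), Pfkm 2.18-fold and Slc16a3 2.00-fold. Aldoc was 13.0-fold lower (adjusted p = 0.00254), Ankrd37 4.10-fold, Pgam2 2.67-fold and Epas1 2.39-fold. Epas1 no longer passed with arrays scaled to their medians (adjusted p = 0.0822) or with all its probes averaged (log2 -0.33, adjusted p = 0.275). Car9 was 8.23-fold lower (adjusted p = 0.0336), a log2 difference of -1.80 or -4.28 without CD45-negative replicate 1 or 2. Egln3, at -1.52, missed the threshold (adjusted p = 0.0507) and passed without either ventricle array (adjusted p = 0.0179 each). Without either CD45-positive array, Aldoc was the 1 member left. The other 8 then had adjusted p from 0.0577 to 0.200. Ldhb passed as higher without CD45-negative replicate 2 (log2 1.02). Without 1 CD45-negative array the calls of Hk3 and Pfkm (replicate 1) and Ankrd37 and Slc16a3 (replicate 2) ended, those of Pfkm and Slc16a3 with a log2 difference under 1. Car9, Pfkm and Slc16a3 ended without either passage-8 array (adjusted p = 0.0522 to 0.0628), and Car9 also without either ventricle array (adjusted p = 0.0641 each). Digestion strength changed together with the sort gate between these groups, so they cannot be told apart.

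Genes around the set, taken from lists of neighbouring pathways, gave a wider frame against ventricle. Of all genes tested against ventricle, 20.3%, 20.2% and 18.1% passed as higher in the passage-8, CD45-negative and CD45-positive groups and 18.9%, 19.3% and 19.9% as lower. Of 13 genes for pyruvate entry to mitochondria, 11 were lower and 1 higher in each cell group (92.3% passing), with a median log2 difference of -3.08 in passage-8 cells, -3.13 in CD45-negative cells and -2.92 in CD45-positive cells. Pdk4, the kinase that shuts pyruvate dehydrogenase in fasting, was 452.2-fold, 263.7-fold and 239.3-fold lower in these groups. Pdk2, a sister kinase, was 41.2-fold, 46.0-fold and 50.7-fold lower. Dlat, a subunit of the complex itself, was 16.2-fold, 16.2-fold and 15.3-fold lower. The 1 gene that rose was Pdk3 (7.94-fold, 6.01-fold and 2.69-fold). The list holds both the complex and the kinases that inhibit it.

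Of 8 pentose phosphate pathway genes tested, which make NADPH and ribose from glucose 6-phosphate, 4, 5 and 7 were higher in passage-8, CD45-negative and CD45-positive cells than in ventricle and 0 lower by limma, also 0 at an unadjusted p under 0.05. That is 50%, 62.5% and 87.5% of the list. Their median log2 differences were 1.03, 1.99 and 1.43. G6pdx, the entry enzyme, was 5.26-fold, 13.1-fold and 9.02-fold higher, and the transketolase Tkt 6.72-fold, 10.1-fold and 8.18-fold. Of 10 glycogen genes tested, 9, 7 and 5 were lower and 0 higher by limma, with 1, 0 and 1 higher at an unadjusted p under 0.05. That is 90%, 70% and 50% of the list. The medians were -1.78, -1.50 and -1.06. Pygm, the muscle glycogen phosphorylase, was 179.9-fold, 146.9-fold and 225.7-fold lower and Pygb, the brain form, 8.69-fold, 38.7-fold and 7.23-fold.

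Of 8 further genes of oxygen sensing, 2 were higher and 2 lower than ventricle in passage-8 cells, 1 and 3 in CD45-negative cells and 1 and 2 in CD45-positive cells, with medians of -0.01, -0.32 and -0.55. The shares passing, 50%, 50% and 37.5%, were near those of all genes (39.2%, 39.5% and 38.1%). Arnt2, a partner of the alpha subunits, was not well above background in ventricle and was at least 17.7-fold, 3.42-fold and 9.43-fold higher in the cell groups. Egln1, the main prolyl hydroxylase, was 2.49-fold, 19.6-fold and 4.89-fold lower. Hif3a, another alpha subunit, was 2.69-fold lower in passage-8 cells and 19.8-fold in CD45-positive cells, and its mean log2 difference in CD45-negative cells, measured on 1 of 2 arrays, was -4.06. With all its probes averaged, the call in CD45-positive cells ended. In passage-8 cells the Egln1 call ended without either array of passage-8 cells, CD45-positive cells or ventricle, and the calls of Egln1 and Hif3a with arrays scaled to their medians. Passage-8 cells had 4 of the 8 higher than CD45-negative cells and 0 lower (5 and 0 at an unadjusted p under 0.05), with 25% to 50% of the list passing in the 3 comparisons among cells, beside 13.9% to 23.6% of all genes. Egln1 was 7.89-fold higher, and Hif3a differed by a mean log2 of 2.63, a call that ended with all its probes averaged. Against CD45-positive cells passage-8 cells had 2 higher and 0 lower (4 and 0 unadjusted), Hif3a (7.37-fold) and Vhl (2.56-fold), the ligase that binds hydroxylated HIF. The direction of Hif3a against CD45-positive cells turned with all its probes averaged, and the Vhl call ended without either array of passage-8 cells, CD45-positive cells or ventricle. CD45-negative against CD45-positive cells had 0 higher and 2 lower (1 and 3 unadjusted), Egln1 (adjusted p = 0.0119) and Arnt2 (2.76-fold). Both ended without either CD45-positive array, and Arnt2 also without either passage-8 or ventricle array.

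Hypoxia targets outside glycolysis moved in both directions. Of 34 tested, 12 were higher and 5 lower than ventricle in passage-8 cells, 13 and 3 in CD45-negative cells and 17 and 3 in CD45-positive cells, with medians of 0.73, 0.82 and 1.33. The shares passing were 50%, 47.1% and 58.8%, beside 39.2%, 39.5% and 38.1% of all genes. Car12, a carbonic anhydrase related to Car9, was not well above background in ventricle and was at least 22.3-fold, 41.4-fold and 7.19-fold higher. Lox, which crosslinks collagen, was 114.9-fold, 76.2-fold and 51.6-fold higher. Vldlr, a lipoprotein receptor, was 6.59-fold, 7.11-fold and 18.2-fold lower. Vegfa, the angiogenic growth factor, did not pass, at -0.02, 0.50 and 0.43 log2 units. It lies outside the naming rule and was chosen after its values were seen. Among the cells, 38.2% passed in passage-8 against CD45-positive cells, 21.2% in passage-8 against CD45-negative cells and 44.1% in CD45-negative against CD45-positive cells, beside 23.6%, 13.9% and 21.8% of all genes. There were 5 higher and 8 lower in passage-8 than in CD45-positive cells, with the peptide hormone Adm 20.2-fold and the chemokine receptor Cxcr4 at least 116.5-fold lower. In passage-8 against CD45-negative cells 2 were higher and 5 lower of 33, with Adm 29.5-fold lower and the stress gene Ndrg1 5.56-fold higher. In CD45-negative against CD45-positive cells 7 were higher and 8 lower, with Car12 5.76-fold higher and the liprin gene Ppfia4 18.9-fold lower.

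Other members of the enzyme families, listed apart from the 34, included 8 higher and 12 lower of 31 in passage-8 cells than in ventricle, 7 and 12 of 27 in CD45-negative cells and 9 and 11 of 28 in CD45-positive cells. The shares passing were 64.5%, 70.4% and 71.4%, beside 39.2%, 39.5% and 38.1% of all genes. Fbp2, the muscle fructose bisphosphatase, was at least 35.7-fold lower in CD45-negative cells and 65.8-fold in CD45-positive cells, where it was not well above background. With 1 of 2 passage-8 arrays measured, its mean log2 difference from ventricle there was -7.17. Among the cells, the list had 3 higher and 6 lower of 27 in passage-8 against CD45-positive cells, 3 and 3 of 26 in passage-8 against CD45-negative cells and 2 and 5 of 24 in CD45-negative against CD45-positive cells (33.3%, 23.1% and 29.2%, beside 23.6%, 13.9% and 21.8% of all genes). Of 12 regulators of glycolytic gene expression, 4 rose and 3 fell in passage-8 cells against ventricle, 3 and 3 in CD45-negative cells and 3 and 2 in CD45-positive cells. Their shares passing, 58.3%, 50% and 41.7%, stand beside 39.2%, 39.5% and 38.1% of all genes. Ppargc1a, a coactivator of mitochondrial genes, was 155.7-fold lower in passage-8 cells, and at least 276.1-fold in CD45-negative cells and 508.2-fold in CD45-positive cells, where it was not well above background. Myc, which drives glycolytic genes in dividing cells, was 7.36-fold, 3.77-fold and 4.06-fold higher. Among the cells 3 were higher and 2 lower of 12 in passage-8 against CD45-positive cells, 1 and 0 of 12 in passage-8 against CD45-negative cells (3 and 1 at an unadjusted p under 0.05) and 1 and 2 of 11 in CD45-negative against CD45-positive cells (41.7%, 8.33% and 27.3%, beside the shares of all genes just given).

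Of the 34 members, 12 have several probes, and some disagreed. Epas1 has 3 on the same transcript. In passage-8 against CD45-positive cells the probe used gave a log2 difference of -5.02, another, which starts at base 3188 of the transcript, -4.91 and the third, which starts at base 3279, -0.02. The used probe of Hif1a gave 2.20 in passage-8 cells against ventricle and the other 0.79, which did not pass. For Hk1 the used probe gave 0.77, 0.90 and 0.50 in passage-8, CD45-negative and CD45-positive cells against ventricle. Another Hk1 probe gave -1.30, -1.58 and -1.37 and passed in all 3 as lower, so the direction for Hk1 depends on the probe. Pfkp gave 0.66 on 1 probe and -0.98 on the other in passage-8 cells against ventricle, neither passing. For Ldha a probe in mid-transcript passed as higher in passage-8 cells (1.09, adjusted p = 0.034), where the used probe, nearer the 3′ end, gave 0.22. All 3 Bnip3 probes failed to pass in every comparison.

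In CD45-negative cells against ventricle the probes of Gapdh and Tpi1 nearer the 5′ end gave lower values, which those of Ldha and Hk1 did not. Against CD45-positive cells, those of Ldha and Hk1 did so too. Ldha then gave -0.31 at base 351, -0.61 at 970 and 0.38 at 1755, and Hk1 -0.91 at base 2983 and -0.21 at 3844. None of these Ldha and Hk1 values passed. Gapdh gave -1.62 at base 156 and -1.42 at 239, which passed, and 0.10 at 1175. Tpi1 gave -1.10 at base 634 and 0.22 at 1204, neither passing. In passage-8 against CD45-negative cells Hk1 gave 1.49 at base 2983, which passed, and 0.27 at 3844. There Gapdh gave 2.20 at base 156 and 1.90 at 239, which passed, and -0.03 at 1175. Tpi1 gave 2.16 at base 634, which passed, and 0.62 at 1204. Ldha gave 0.62 at base 351, 0.93 at 970 and -0.31 at 1755, none passing. Gapdh has 7 probes on 1 transcript, which start from 156 to 1175 bases from its 5′ end (the files place the one at base 740 on chromosome 8). In CD45-negative cells against ventricle the log2 difference was -2.02 at base 156, -1.60 at 239, -0.96 at 391 and -0.36 at 1175, and the first 2 passed. In passage-8 cells the same 4 gave 0.17, 0.30, -0.01 and -0.39, and in CD45-positive cells -0.41, -0.19, -0.36 and -0.46, none passing. Tpi1 in CD45-negative cells against ventricle gave -1.25 at base 634, which passed, and 0.04 at base 1204. Ldha in the same comparison gave 0.51 at base 351, 0.17 at 970 and 0.53 at 1755, and in passage-8 cells 1.13, 1.09 and 0.22, lowest at the 3′ end. For Hk1 a pair of probes on 1 transcript gave -1.49 at base 2983 and -1.58 at base 3844 in CD45-negative cells. Over 1707 transcripts with probes at least 500 bases apart, the median of the upstream minus the downstream probe, relative to its mean over the arrays, was 0.12 and 0.14 in passage-8 cells, -0.26 and -0.06 in CD45-negative cells and 0.13 and 0.06 in CD45-positive cells, against 0.05 and -0.08 in left ventricle. The second CD45-negative array was thus no lower than the second ventricle array, but both CD45-negative arrays were lower than every passage-8 and CD45-positive array. The part of this in the members' differences was not tested.

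**Figure D5:**
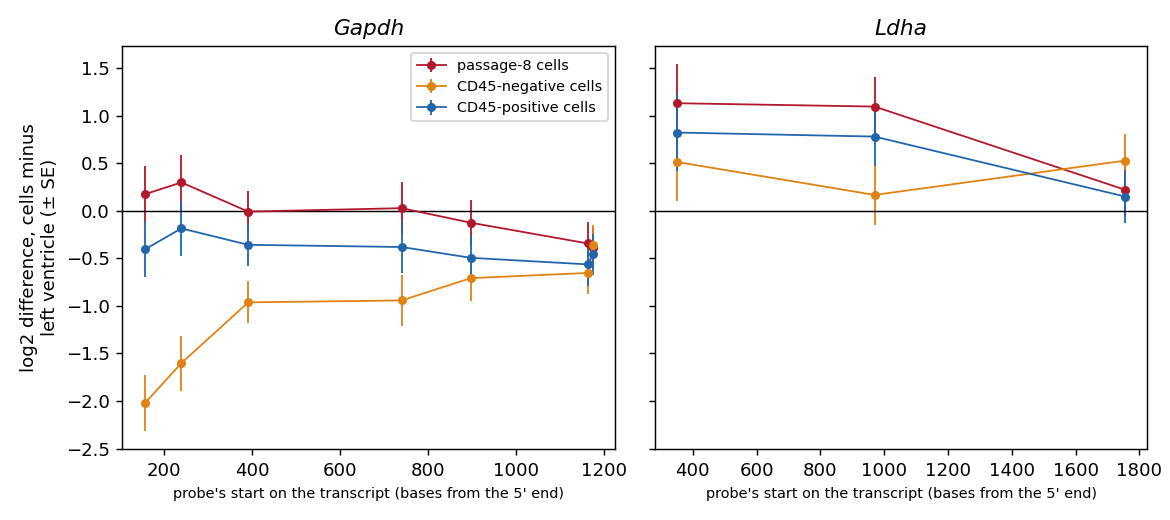
Log2 difference of each cell group minus left ventricle with SE bars, for each probe of the RefSeq transcripts of Gapdh and Ldha, by the probe's start in bases from the 5′ end of the transcript. The CD45-negative values for Gapdh run between -2.02 at base 156 and -0.36 at base 1175, while those of the other cell groups stay between -0.56 and 0.30.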

How the data were processed

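The study hybridised 8 one-colour Agilent arrays, 2 per group, on 1 slide. Per the file headers, Feature Extraction 10.7 gave the deposited intensity of each spot with background subtraction and multiplicative detrending. The authors' deposited log2 values of the same arrays, whose scaling the sources used here do not state, served as an alternative. Control and outlier spots were left out, spots of a probe averaged, and log2 intensities taken relative to each array's 75th percentile. Of a gene's probes, the one with the highest mean was used. A gene was tested if both arrays of 1 or both compared groups had it well above background, with limma 3.58.1 (R 4.3.3) fitted on all 8 arrays. An exact permutation test of 2 against 2 cannot go below p = 0.333. A bound ("at least N-fold") sets the dim group at the lowest signal well above background on each array. Every member is named, and up to 3 other genes per list and direction. Members and lists were chosen with earlier results of these data known. Tested on simulated data for passage-8 against CD45-positive cells (23524 genes), the fit recovered 35 of 100 genes changed by a log2 of 2. It recovered 72 of 100 changed by 4 and called 11 unchanged genes. The simulated spread was shuffled over all genes, dim ones included, and was alike in all groups, so these rates are not the members' own. A member that did not pass is not shown to be unchanged.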

Additional observations from a re-analysis of the deposited data

How the results depend on the processing

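Over 20 alternatives, 50 of the 81 member calls in the 6 comparisons were kept under every one, 29 were lost when some array was left out, and 0 turned direction. Leaving out 1 array moved the number of members passing between 4 and 10 in passage-8 against CD45-positive cells, 2 and 7 in passage-8 against CD45-negative cells and 1 and 8 in CD45-negative against CD45-positive cells. Against left ventricle it was 16 to 22 in passage-8 cells, 16 to 19 in CD45-negative cells and 16 to 20 in CD45-positive cells. In passage-8 against CD45-negative cells 10 members passed with normexp background and 2 when only these groups were fitted. In CD45-negative against CD45-positive cells 3 passed when only these groups were fitted, while in passage-8 against CD45-positive cells 11 passed (9 otherwise). With the replicate number as a block, 9, 4 and 9 members passed in these 3 comparisons among cells and 21, 16 and 18 against ventricle. The deviations of same-numbered arrays had correlations between -0.20 and 0.19 over genes. With 2 arrays a group, these cannot show whether such arrays share a culture or mouse.

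Over all genes, passage-8 against CD45-negative cells had 3190 calls, with 1887 after scaling to the median, 181 with only these groups and 2076 with array weights. CD45-negative against CD45-positive cells had 4709, with 3049 and 1978 under the first 2 of these. Without 1 array the counts ran from 2193 to 6365 in passage-8 against CD45-positive cells, 851 to 5198 in passage-8 against CD45-negative cells and 693 to 6024 in CD45-negative against CD45-positive cells. Against ventricle, CD45-positive cells had 5674 to 9427. Scaling to the median turned the share of higher among the calls to 40.6% in passage-8 against CD45-positive cells (53.9% otherwise), 35.3% in CD45-negative against CD45-positive cells (51.7%) and 58.2% in CD45-positive cells against ventricle (47.7%), and normexp to 32.4% in passage-8 against CD45-negative cells (50.1%). Median scaling moved the median of all genes to 0.02 in passage-8 against CD45-positive cells (0.16 otherwise), 0.02 in CD45-negative against CD45-positive cells (0.17) and 0.26 in CD45-positive cells against ventricle (-0.03). The causes were not tested.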
